A study of Mus musculus with 12 samples.

Results

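The genes described here encode the proteins of the mitochondrial ribosome. They were chosen by their symbols, Mrpl followed by a number for the large subunit and Mrps followed by a number for the small subunit. RNA had been sequenced from mouse female germline stem cells, germ cells of the ovary that are grown in culture and can renew themselves. The cells came from the C57BL/6 strain, per the labels, and fell into 4 groups of 3 libraries, namely cells overexpressing Usp7 with a control of their own and cells with Usp7 knocked down with another control. Usp7 encodes a deubiquitinase, an enzyme that removes ubiquitin from other proteins. The labels name neither the vectors nor what the controls received nor the time in culture, and Usp7 itself was not analysed here. Each construct had a table of its own with its own control, and each table held only transcripts that the authors' test had selected, so almost every listed transcript differs and the direction is what distinguishes them. The knockdown table listed 30 such genes among its 3156 transcripts (3127 genes), 22 of the large and 8 of the small subunit. RefSeq annotates 78 protein-coding genes of this naming in the mouse, 49 large and 29 small, and those without a row were not analysed here. The overexpression table, with 648 transcripts (647 genes), listed a single one, Mrpl33, which was also in the knockdown table.

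The mitochondrial ribosome makes the few proteins that mitochondrial DNA encodes, all of them subunits of the respiratory chain and of ATP synthase. Its RNA parts are encoded in the mitochondrial genome, while all of its proteins come from nuclear genes, are made in the cytosol and are imported. The large subunit joins amino acids, and the small subunit reads the messenger RNA. Some of the proteins have counterparts in bacterial ribosomes, and others are found only in mitochondria.

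Knockdown libraries had higher values than their controls for all 30 genes with the authors' scaling. The median log2 fold was 0.87 over the 30 genes, against -0.61 over all 2902 transcripts tested in the table. The median was higher for the large subunit (median 0.99, range 0.63 to 1.76, 22 genes) than for the small subunit (median 0.65, range 0.58 to 0.94, 8 genes). The smallest log2 fold of the authors in the table was 0.585, so the small-subunit median lay close to the limit of their selection. All 30 passed limma's moderated test on log2(normalized count + 1), with Benjamini-Hochberg adjusted p-values of at most 0.0072 over the whole table. Of all transcripts there, 99.9% passed in either direction and 49.1% passed as higher, so the count of 30 of 30 bears on direction alone. Over the transcripts that passed as higher the median log2 fold was 0.86, next to the 0.87 of the 30 genes. Among transcripts with a mean of at least 100 normalized counts, which all 30 genes had, 66.5% passed as higher. Transcripts at least as abundant as the lowest of the 30 numbered 1399, of which 72% passed as higher. The median log2 fold was 0.71 over all of these and 0.81 over those that passed as higher. The sign for 15 of the 30 genes depended on how libraries were scaled: scaled to the sum of their listed counts, 15 genes were below 0 and 7 passed as higher, where 9.27% of all transcripts did.

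The sequence around the start site is shown for 4 of these genes, since the group moved in 1 direction with the authors' scaling. They are Mrpl18, which had the highest fold, Mrpl33, which both tables listed, Mrpl22, which shared a pair of motifs with Mrpl33, and Mrps7, the small-subunit gene with the highest count. The 300-base windows run from 250 bases before to 50 bases after the RefSeq transcription start (build GRCm38.p6), 5′ to 3′ along the gene. Capitals mark exact matches, on either strand, to a half-site of NRF1 (GCGCATG), to a core bound by ETS factors such as GABPA (CCGGAAG) and to a core of YY1 (AAGATGGC), all of them factors known for mitochondrial genes. Mrpl18 lies at chr17:12916042-12916341 on the minus strand, Mrpl33 at chr5:31613701-31614000 on the plus strand, Mrpl22 at chr11:58171414-58171713 on the plus strand and Mrps7 at chr11:115603890-115604189 on the plus strand.
Mrpl18: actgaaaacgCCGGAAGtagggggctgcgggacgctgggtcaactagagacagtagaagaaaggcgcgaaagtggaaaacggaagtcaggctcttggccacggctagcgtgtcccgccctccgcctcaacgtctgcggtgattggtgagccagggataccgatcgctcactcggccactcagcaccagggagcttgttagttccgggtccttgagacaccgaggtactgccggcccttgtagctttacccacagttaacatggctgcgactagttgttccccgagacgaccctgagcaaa
Mrpl33: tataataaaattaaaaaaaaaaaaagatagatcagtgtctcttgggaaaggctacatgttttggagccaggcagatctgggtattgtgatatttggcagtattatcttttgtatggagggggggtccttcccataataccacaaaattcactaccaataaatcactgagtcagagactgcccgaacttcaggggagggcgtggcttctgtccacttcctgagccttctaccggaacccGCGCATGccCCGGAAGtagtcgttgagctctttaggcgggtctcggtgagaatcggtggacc
Mrpl22: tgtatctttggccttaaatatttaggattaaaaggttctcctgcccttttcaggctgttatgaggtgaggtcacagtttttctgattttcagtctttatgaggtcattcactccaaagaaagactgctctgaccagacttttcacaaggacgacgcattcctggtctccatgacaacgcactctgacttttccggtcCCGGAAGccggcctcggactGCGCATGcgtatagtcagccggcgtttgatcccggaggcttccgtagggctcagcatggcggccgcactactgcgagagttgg
Mrps7: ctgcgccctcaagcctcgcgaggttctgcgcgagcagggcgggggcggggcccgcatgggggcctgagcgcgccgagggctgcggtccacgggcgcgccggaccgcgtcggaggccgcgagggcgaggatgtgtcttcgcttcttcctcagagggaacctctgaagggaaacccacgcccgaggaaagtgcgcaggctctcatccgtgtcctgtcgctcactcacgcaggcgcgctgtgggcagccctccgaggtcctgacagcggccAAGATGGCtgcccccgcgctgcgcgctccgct

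The ETS core of Mrpl18 began 240 bases before the start, far from it, whereas that of Mrpl33 began 3 bases and that of Mrpl22 53 bases before the start. The windows of Mrpl18 and Mrpl22 lie inside their RefSeq genes (chr17:12911345-12917787 and chr11:58170043-58179580). These genes begin further upstream than the starts used here, so positions hold for those starts only. The windows of Mrpl33 and Mrpl22 also held the NRF1 half-site, at 12 bases before the start of Mrpl33 and 33 bases before that of Mrpl22, and no other window of the group held it. In Mrps7 the YY1 core lay inside the transcript, beginning at base 19. Windows were matched for 29 of the 30 genes (Mrpl15 was not matched). The ETS core occurred in 9 of 29 (31%, exact 95% interval 15.3 to 50.8%), against 8.86% of all 32851 promoters in RefSeq and 23.4% of the promoters of other genes listed as higher in the knockdown table. It was in 11.3% of the promoters of genes listed as lower. The YY1 core was in 10.3% of the windows (interval 2.19 to 27.4%), against 2.75% of all promoters and 5.46% of those of other genes listed as higher. The NRF1 half-site was in 6.9% of the windows, above the 3.91% of all promoters and below the 8.02% of other genes listed as higher. Among general promoter elements, the GC box bound by Sp1 (GGGGCGGG) was in 27.6% of the windows, against 16.5% of all promoters but 32.2% of those of other genes listed as higher. The E-box CACGTG was in 10.3% of the windows, against 7.15% of all promoters but 12.5% of those listed as higher. CCAAT was in 48.3% of the windows, against 37.4% of all promoters and 37.6% of those listed as higher, TATAAA in 6.9%, against 13.6% and 6.7%, and the cyclic AMP element TGACGTCA in 6.9%, against 1.79% and 2.73%. All promoters include those of noncoding genes. Among 21263 promoters of protein-coding genes the shares were 11.6% for ETS, 3.05% for YY1, 4.8% for NRF1 and 22.1% for Sp1. They were 7.84% for the E-box, 38.2% for CCAAT, 12.6% for TATAAA and 2.23% for TGACGTCA. In all, 12 genes held at least 1 match to NRF1, ETS or YY1, and these letters are a description of the windows, not of binding.

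Large-subunit genes took the 6 highest places. Mrpl18 (NM_026310), whose protein sits in the central protuberance of the large subunit, had 1050, 1121 and 1305 normalized counts in knockdown libraries 1 to 3, against 363, 350 and 312 in the controls. That was the highest fold of the 30, at a log2 fold of 1.76 ± 0.11 (SE, n = 3 libraries per group; limma adjusted p = 9.1e-06), and its lowest knockdown library was 2.89 times its highest control. Mrpl41, a protein found only in mitochondria, had 250, 284 and 294 in knockdown libraries, against 72.7, 107 and 102 in controls (log2 fold 1.56 ± 0.17, adjusted p = 5.1e-05). Mrpl36, a small protein with a bacterial counterpart, had 427, 464 and 582 in knockdown libraries and 185, 181 and 176 in controls (1.43 ± 0.13). In each of these 3 genes every knockdown library was more than double any control, and control library 1 of Mrpl41 lay below the other two.

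Mrpl50, a mitochondria-specific protein, had 412, 365 and 392 normalized counts in knockdown libraries and 141, 151 and 151 in controls (1.39 ± 0.10). It was the one gene of the 30 whose highest value was in knockdown library 1. Mrpl34, which has the shortest coding sequence of the 30 genes (276 bases) and a bacterial counterpart, had 720, 827 and 1081 in knockdown libraries and 328, 340 and 332 in controls (1.37 ± 0.15). Mrpl20, known in bacteria as a protein needed early in assembly of the large subunit, had 438, 462 and 658 in knockdown libraries and 192, 205 and 200 in controls (1.36 ± 0.16). For Mrpl34 and Mrpl20 knockdown library 3 was the high one, while their controls differed little.

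The 6 lowest folds were those of 5 small-subunit genes and Mrpl28. Mrps26, a mitochondria-specific protein, had 857, 985 and 1193 normalized counts in knockdown libraries, against 683, 652 and 677 in controls (log2 fold 0.58 ± 0.13, adjusted p = 0.0018). Mrps25, likewise specific to mitochondria, had 387, 390 and 395 in knockdown libraries, against 261, 251 and 258 in controls (0.60 ± 0.09). Mrps9, with a bacterial counterpart in the head of the small subunit, had 727, 743 and 768 in knockdown libraries, against 512, 499 and 468 in controls (0.60 ± 0.09). Of these 3 genes, Mrps25 and Mrps9 had the knockdown libraries closest together, and their small differences were several times their errors.

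Mrpl28 had 954, 1080 and 1426 normalized counts in knockdown libraries, against 775, 729 and 696 in controls (0.63 ± 0.15, adjusted p = 0.0024), the lowest fold of the large subunit. Mrps15 had 760, 887 and 924 in knockdown libraries, against 567, 565 and 519 in controls (0.63 ± 0.11). Mrps5, whose bacterial counterpart helps form the channel through which messenger RNA enters, had 693, 841 and 1147 in knockdown libraries, against 603, 538 and 524 in controls (0.66 ± 0.17). In Mrps5 the lowest knockdown library was close to the highest control, though the groups did not overlap. All 6 of these genes were below 0 with libraries scaled to column totals, at -0.23 for Mrps26, -0.21 for Mrps25 and Mrps9, -0.18 for Mrpl28 and Mrps15, and -0.15 for Mrps5, and none of the 6 passed there.

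Mrpl12 and Mrps7 had the highest counts of their subunits. Mrpl12, part of the stalk that recruits translation factors and also described as a partner of the mitochondrial RNA polymerase, had 2102, 2390 and 2932 normalized counts in knockdown libraries, against 1516, 1345 and 1372 in controls (log2 fold 0.80 ± 0.13, adjusted p = 3.6e-04). Mrps7, a protein of the small subunit's head with a bacterial counterpart, had 1311, 1517 and 1868 in knockdown libraries and 1021, 940 and 926 in controls (0.69 ± 0.13, adjusted p = 9.3e-04). Both were next to 0 or below it under column totals, at -0.01 for Mrpl12 and -0.12 for Mrps7. Counts are not divided by transcript length, so this order is not one of RNA amounts.

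Another 13 large-subunit genes without the highest or lowest places had log2 folds between 0.71 and 1.19 with the authors' scaling. Mrpl22, whose protein lines the exit tunnel of the growing chain, averaged 667 ± 76.9 normalized counts in knockdown libraries and 291 ± 14 in controls (SD, n = 3 each), a log2 fold of 1.19 ± 0.11. The stalk proteins Mrpl53 and Mrpl11 had log2 folds of 1.18 ± 0.19 and 1.10 ± 0.14. The central protuberance proteins Mrpl40 and Mrpl46 had 0.99 ± 0.17 and 0.71 ± 0.15, lower than Mrpl18 of the same region. Mrpl1, the protein of the mobile L1 stalk, had 0.96 ± 0.16, and Mrpl44, which has the fold of an RNase III enzyme, 0.80 ± 0.14. Mrpl51, Mrpl49 and Mrpl43, all mitochondria-specific, had 1.00 ± 0.13, 0.78 ± 0.10 and 0.77 ± 0.22. Mrpl16, next to the peptidyl transferase centre, and Mrpl14, at the interface of the subunits, had 0.77 ± 0.12 and 0.75 ± 0.19. Genes for proteins with and without bacterial counterparts had median log2 folds of 1.10 (13 genes) and 0.99 (9 genes) in the large subunit and 0.66 (5 genes) and 0.60 (3 genes) in the small, a split made after the values were known.

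Reads of neighbouring genes may enter some of these values. The sources used here do not say whether strand was kept, and 9 of the 30 genes share over 10% of their annotated exon bases (GENCODE M21) with another gene. The share was 88% for Mrpl53 (Gm42688 on the same strand and Ccdc142os on the other) and 69.8% for Mrps25 (Nr2c2 on the other strand). It was 33.4% for Mrpl43 (Twnk on the other strand) and 23.2% for Mrps18c (Gm43511 on the same strand). For Mrpl12, Mrpl14, Mrpl18, Mrpl46 and Mrps7 it was 10.1 to 13.1%, so the values of all 9 are uncertain. Reads shared with a gene on the same strand would not be separated even if strand was kept. Mrpl1 and Mrpl15 each have more than 1 RefSeq mRNA, of which 1 was listed.

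**Figure D1:**
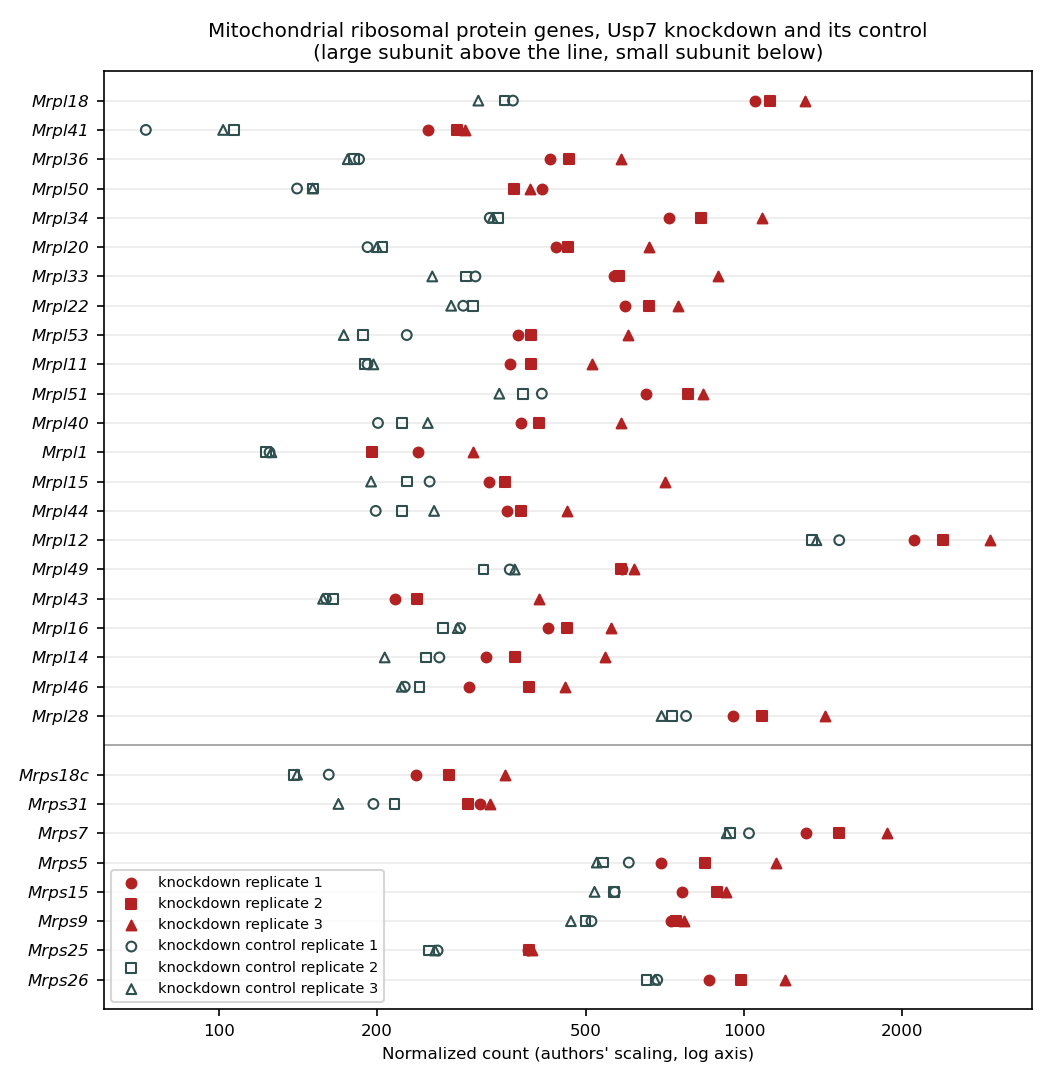
Normalized counts (log axis) of the 30 genes in each library, ordered by fold within the large and the small subunit. Filled red symbols are the 3 knockdown libraries and open dark symbols their 3 controls. In every gene the lowest knockdown library lies to the right of the highest control with the authors' scaling, and knockdown library 3 is the rightmost in 29 of 30.

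The libraries of the knockdown group were not alike. Knockdown library 3 held the highest value for 29 of the 30 genes, and library 1 held the lowest for 26. The ratio of library 3 to the mean of libraries 1 and 2 had a median of 1.31 over the 30 genes, against 1.14 over listed transcripts with a mean of at least 100. Mrpl15 was the most extreme, with 327, 350 and 708 normalized counts in knockdown libraries and 252, 228 and 195 in controls (log2 fold 0.95 ± 0.27, adjusted p = 0.0072). Mrpl43 had 217, 238 and 407 in knockdown libraries and 160, 165 and 158 in controls (0.77 ± 0.22, adjusted p = 0.0068). Both were singled out after their values were seen. They were the genes whose log2 fold fell by a factor of more than 1.5 without knockdown library 3, to 0.60 for Mrpl15 and 0.49 for Mrpl43. All 30 genes still passed as higher without it, with a median log2 fold of 0.72. The groups did not overlap in any of the 30 genes, as was also the case for 98.4% of all listed transcripts.

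The large and the small subunit can be compared within a library, where scaling cancels. Summed over the 22 listed large-subunit genes, normalized counts were 12033, 13163 and 16896 in knockdown libraries, against 7078, 6803 and 6650 in controls. Summed over the 8 small-subunit genes they were 5285, 5936 and 6974 in knockdown libraries, against 4005, 3800 and 3683 in controls. The ratio of the large to the small sum was 2.28, 2.22 and 2.42 in knockdown libraries, against 1.77, 1.79 and 1.81 in controls, so it was higher in every knockdown library than in any control. The means were 2.31 ± 0.103 in knockdown and 1.79 ± 0.02 in controls (SD, n = 3 each), a ratio of 1.29. The medians of the subunits' log2 folds differed by 0.35, and by 0.28 to 0.46 when any 1 of the 6 libraries was left out. By gene, 14 of the 22 large-subunit genes had a higher fold than every small-subunit gene. The highest small-subunit gene was Mrps18c, 1 of several S18 paralogs in mammalian mitochondria. It had 237, 274 and 351 normalized counts in knockdown libraries, against 162, 139 and 141 in controls (0.94 ± 0.16), whereas the next small-subunit gene, Mrps31, reached 0.70 ± 0.12. No test was made over these groups of genes, and both subunits are represented only by the genes the authors' selection kept. Every small-subunit gene but Mrps18c had a log2 fold between 0.58 and 0.70, next to the smallest kept by that selection (0.585). The part of this limit in the difference between the subunits was not tested.

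**Figure D2:**
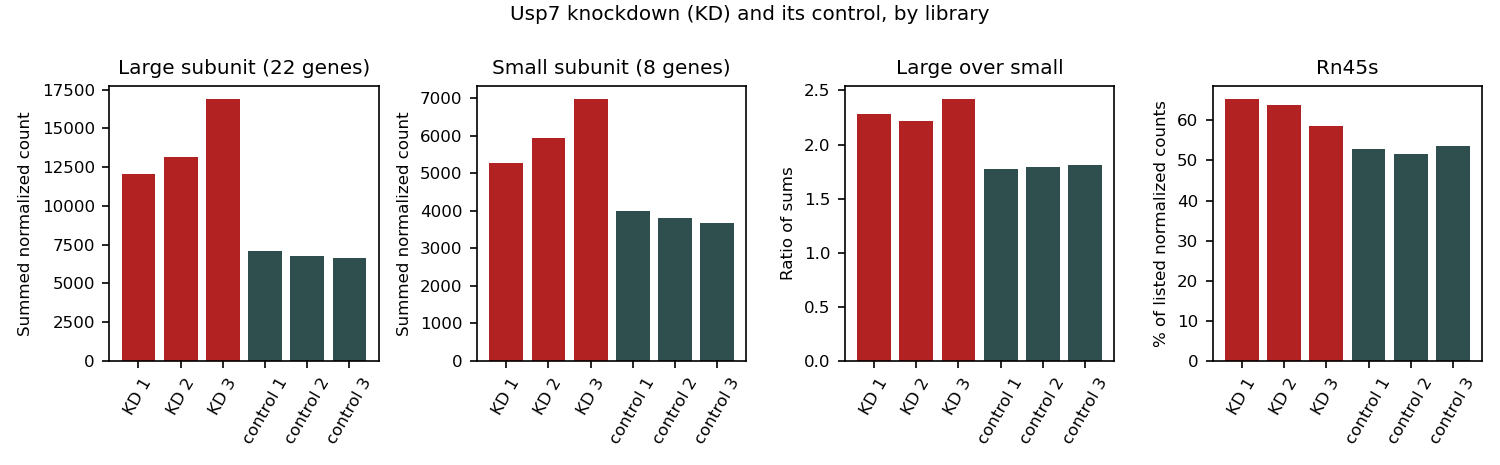
Summed normalized counts of the 22 large-subunit and 8 small-subunit genes, the ratio of the sums, and the share of listed counts taken by Rn45s, for each knockdown library (KD, red) and each control (dark). The ratio lies between 2.22 and 2.42 in knockdown libraries and between 1.77 and 1.81 in controls, and it does not depend on scaling, whereas the sums do.

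How far the 30 genes rose as a group turned on the scaling of the libraries. Rn45s, the precursor of the cytosolic ribosomal RNAs, took 65.3%, 63.8% and 58.7% of listed counts in knockdown libraries, against 52.8%, 51.5% and 53.6% in controls and so weighed on any scaling by totals. With libraries scaled to column totals the median log2 fold was 0.07 over the 30 genes (0.18 large, -0.16 small), and 7 of them passed as higher, all of the large subunit: Mrpl18, Mrpl41, Mrpl36, Mrpl50, Mrpl34, Mrpl20 and Mrpl22. With column totals that left out Rn45s all 30 were above 0, with a median of 0.41 (0.53 large, 0.18 small), and 19 passed as higher where 33.7% of all transcripts did. With the authors' size factors undone all 30 were again above 0 and 15 passed, where 24.1% of all transcripts passed as higher. Mrpl18 kept a log2 fold of 0.95 with column totals and 1.29 without Rn45s, against 1.76 with the authors' scaling. Measured against the median of all transcripts tested, which was -0.61 with the authors' scaling, -1.42 with column totals and -1.07 without Rn45s, the 30 genes stood 1.48 higher under each of the 3, since scaling moves all transcripts alike. The authors' selection left no transcripts near 0, so this distance spans the gap between lower and higher transcripts. With the authors' scaling, transcripts that passed as higher had a median of 0.86, against 0.87 for the 30 genes. The distance was smaller when transcripts averaging under 100 normalized counts were left out: the median of the 30 genes was then 0.19 above that of all, with the large subunit 0.31 above and the small subunit at -0.04. As a share of listed counts other than Rn45s, the 30 genes made up 0.929%, 0.957% and 1.05% in knockdown libraries, against 0.729%, 0.726% and 0.714% in controls.

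**Figure D3:**
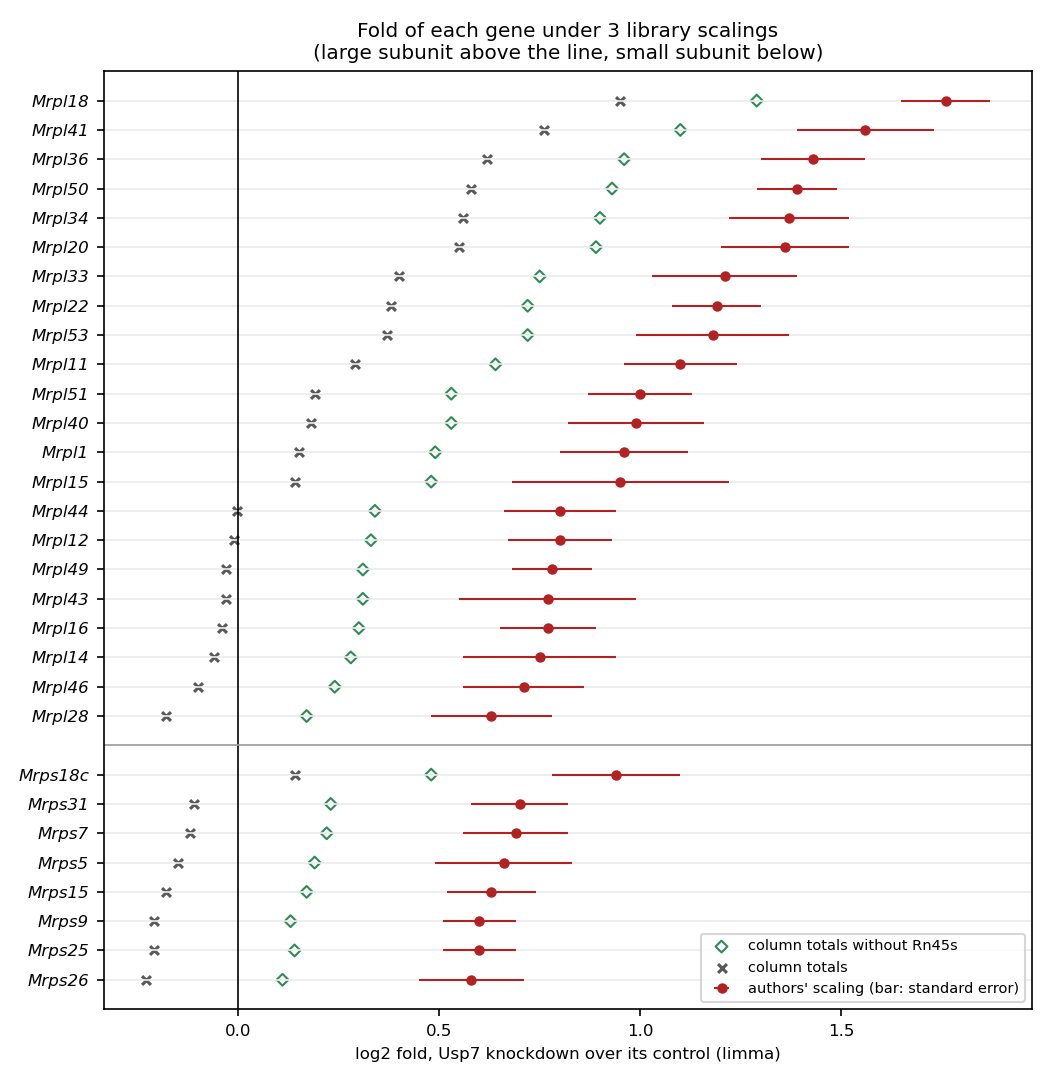
Log2 fold of each gene, knockdown over its control, with the authors' scaling (red circles, bars are standard errors), with column totals that leave out Rn45s (green diamonds) and with column totals (crosses). Scaling moves all genes by about the same amount, so the order of the genes stays while 15 of them lie below 0 with column totals, 8 of the large and 7 of the small subunit.

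The proteins are short, and short listed transcripts were more often higher in knockdown. The longest annotated coding sequence had a median of 588 bases over the 30 genes (276 to 1296), 519 bases for the large and 750 bases for the small subunit, against 1294 bases over all coding transcripts tested. Up to 500 bases, 12 of the genes had a median log2 fold of 1.20, while 80% of the 325 other transcripts passed as higher, with a median of 0.86. From there to 1000 bases, 14 genes had a median of 0.78, and 58.6% of 643 others passed as higher, with a median of 0.65. From 1000 to 2000 bases, 4 genes had a median of 0.68, against -0.67 for 907 others, of which 47% passed as higher. Among others that averaged 100 or more, as all 30 genes did, the medians were 0.83, 0.73 and 0.66 in these 3 classes, with 89.7%, 76.3% and 64.7% passing as higher, so the difference from the 4 longest genes was then small. Above 3000 bases 29.4% of all others passed as higher. Between 500 and 1000 bases, where both subunits had several genes, the median was 0.88 for 10 large-subunit genes and 0.62 for 4 small-subunit genes. The ratio of knockdown library 3 to libraries 1 and 2 also varied with length, with a median of 1.25 over other transcripts up to 500 bases and 1.03 above 3000 bases. The part of length in the folds of these genes was not tested, and the length classes were chosen after the values were known.

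**Figure D4:**
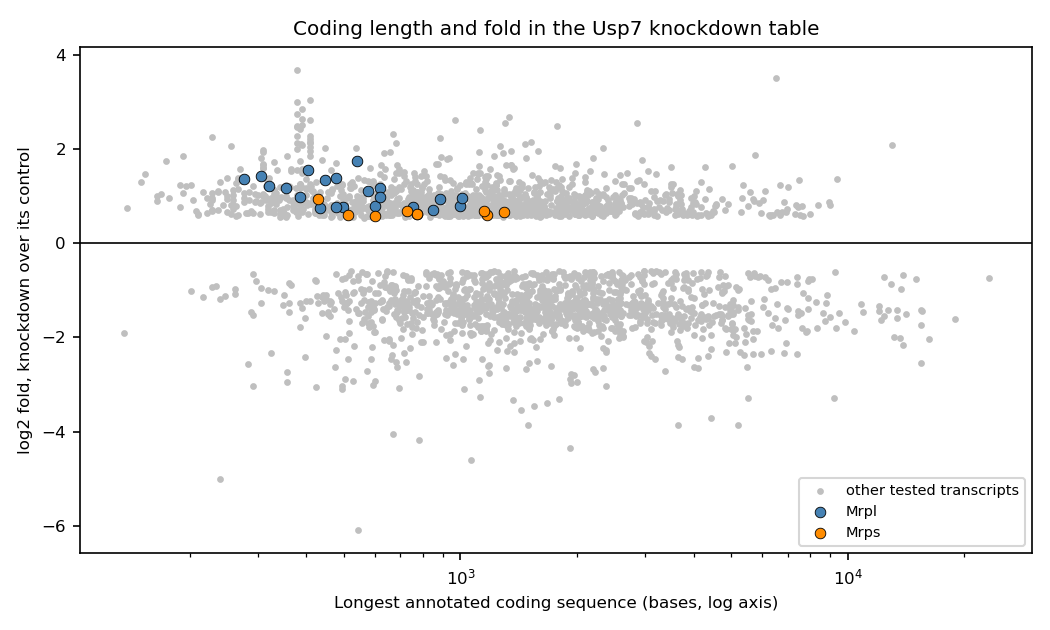
Log2 fold with the authors' scaling against the longest annotated coding sequence (log axis) for all tested coding transcripts of the knockdown table (grey), large-subunit genes (blue) and small-subunit genes (orange). The 30 genes lie between 276 and 1296 bases and between 0.58 and 1.76 (15 of them are below 0 with column totals), in the short part of the plot where most other transcripts are above 0 as well. The empty band around 0 is the authors' selection on fold.

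Pairs of genes that start close together on opposite strands were common in the group. A protein-coding gene started within 1000 bases on the other strand for 14 of the 30 genes (46.7%), against 415 of 2661 other protein-coding genes tested (15.6%). Those others include genes listed as lower, and other higher or equally abundant genes were not counted apart. Of these partners, 3 were themselves listed: Twnk, the mitochondrial DNA helicase (log2 fold 0.84, beside Mrpl43), Hira, a histone chaperone (0.78, beside Mrpl40, with starts 175 bases apart), and Gga3, a sorting adaptor (0.68, beside Mrps7, 126 bases apart). Mrpl36 starts 29 bases from Ndufs6, a subunit of complex I, Mrpl49 starts 59 bases from Fau, which encodes a cytosolic ribosomal protein, and Mrpl46 starts 412 bases from Mrps11. Mrpl18 starts 644 bases from Tcp1, a subunit of the chaperonin that folds actin and tubulin. It shares 10.1% of its exon bases with Tcp1, as Mrps7 does 11.9% with Gga3 and Mif4gd and Mrpl43 33.4% with Twnk. Reads of these neighbours may enter the values. Ndufs6, Fau, Mrps11 and Tcp1 were not analysed here.

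Few of the other genes that serve mitochondrial translation were listed. Their counts with the authors' scaling stand beside 49.1% of all transcripts that passed as higher, or 66.5% of those averaging 100 or more. The sizes of some lists count symbols, among them older names of a gene already in the list. Of 34 symbols for assembly of the mitochondrial ribosome and modification of its RNA, 9 were tested, of which 8 rose and 1 fell (median log2 fold 0.74). Noa1, a GTPase of ribosome assembly, had 1459, 1650 and 1764 normalized counts in knockdown libraries and 849, 823 and 795 in controls (0.98 ± 0.10), and Malsu1, which prevents early joining of the subunits, had a fold of 0.86 ± 0.14. Fastkd2, an RNA-binding protein of mitochondria, was the one that fell, at -1.86 ± 0.45, with 5.2, 6.23 and 2.77 in knockdown libraries and 14.7, 34.6 and 13.5 in controls. Of 21 symbols of translation factors 4 were tested and rose (median 0.80), Slirp (0.99 ± 0.24), Gfm1 (0.85 ± 0.09), Tsfm (0.75 ± 0.16) and Mtfmt (0.70 ± 0.11). Of 10 proteins of the mitochondrial ribosome or its close partners with other symbols, Chchd1 of the small subunit rose (0.96 ± 0.26). With column totals the medians of the assembly and translation factor lists were -0.07 and -0.01.

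Listed genes that supply or use the mitochondrial ribosome are given by their counts with the authors' scaling, to be read against the same 49.1% and 66.5% of transcripts that passed as higher. Of 28 symbols of mitochondrial DNA maintenance and transcription 4 were tested and rose (median 0.81, but 0.00 with column totals). They were Endog (1.21 ± 0.18), a nuclease, Twnk, the elongation factor Tefm (0.78 ± 0.13) and Polrmt (0.67 ± 0.13), the RNA polymerase of mitochondria. Of 39 protein import genes 13 were tested and rose (median 0.76, but -0.05 with column totals), led by the small chaperones Timm10 (1.58 ± 0.14) and Timm8a1 (1.22 ± 0.12). The nuclear-encoded respiratory chain and ATP synthase genes, which include the partners of the proteins made by this ribosome, had 25 higher and 3 lower of 28 tested (median 0.97, and 0.16 with column totals), and the lowest was Cox6a2 at -3.03 ± 0.27. Cox8c (-1.15 ± 0.17) and Ndufa4l2 (-0.97 ± 0.20) of that list were also lower. Cytosolic ribosomal protein genes had 29 higher and 2 lower of 31 tested transcripts (median 0.79, but -0.03 with column totals). The 2 lower were Rps4l (-1.32 ± 0.15) and Rpl10l (-0.93 ± 0.19). None of the 15 genes of the mitochondrial genome was analysed here, so the RNA parts of the ribosome and the messages it reads have no value.

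**Figure D5:**
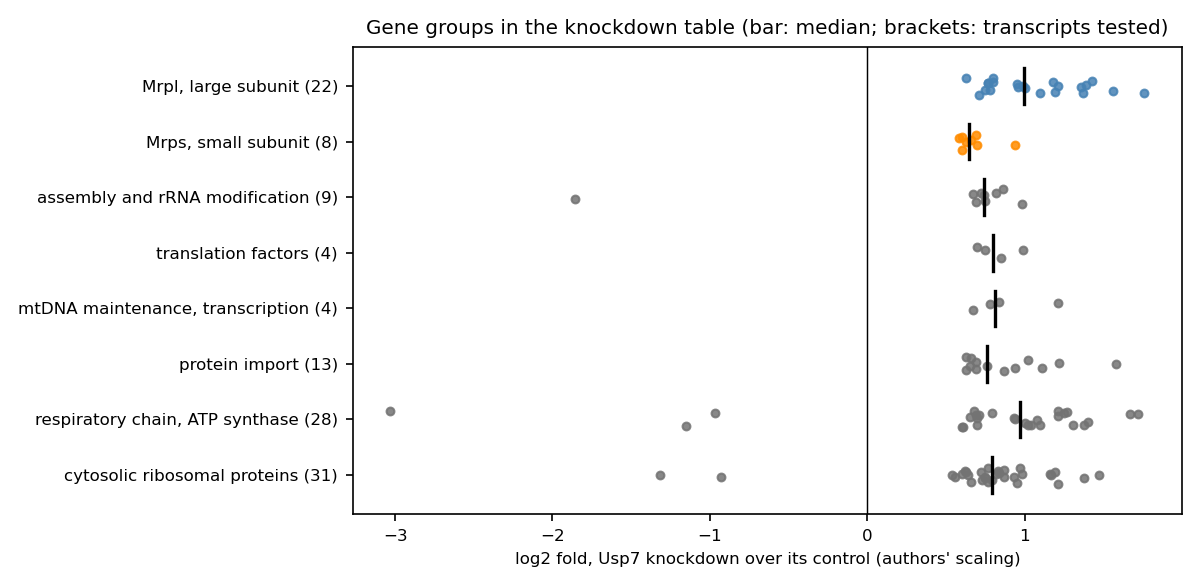
Log2 fold with the authors' scaling for the large-subunit (blue) and small-subunit genes (orange) and for 6 related gene lists (grey) in the knockdown table, 1 point per transcript tested, with the median as a bar. Most points lie between 0.5 and 1.8, and the large-subunit median of 0.99 is next to that of the respiratory chain at 0.97. With column totals the medians lie between -0.16 and 0.18.

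Some markers of cell types were also listed in the knockdown table. Of 19 germ cell marker symbols 5 were listed, with summed normalized counts of 874 to 972 in knockdown libraries and 1766 to 1927 in controls. The 4 that were tested (Tex101, Mael, Id4 and Foxo3) fell. The defining germ cell gene Ddx4 was not analysed here. Markers were listed only if the authors' test had selected them as changed, so the labelled cell type could not be checked. The 2 listed fibroblast markers, Col1a1 and Col1a2, summed to 92 to 130 in knockdown libraries and 328 to 1553 in controls, and the 3 smooth muscle markers to 178 to 213 in knockdown libraries and 361 to 1296 in controls. Control library 2 alone gave the high end of both, with 735 for Col1a1 and 722 for Acta2, against 170 and 185 for Col1a1 and 187 and 162 for Acta2 in the other controls, and the smooth muscle marker Tagln did not pass (limma adjusted p = 0.056). The 2 immune markers summed to 140 to 171 in knockdown libraries and 384 to 432 in controls, and the epithelial marker Epcam had 8.32 to 12.5 in knockdown libraries and 20.8 to 26.1 in controls. The endothelial markers Kdr and Cdh5 were listed at 0 in at least 1 library and summed to 0 to 8.31 in knockdown libraries and 12.3 to 75.3 in controls, and of 10 granulosa and theca markers 2 were listed, of which Cyp11a1 rose (0.82 ± 0.11). In whole cultures, a change in the mix of cells and a change in RNA per cell cannot be told apart, and the part of these markers' cells in the values of the 30 genes was not tested.

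In the overexpression table Mrpl33 (NM_025796) was higher with the authors' scaling and with column totals, and below 0 with another 2 scalings. This large-subunit protein, with a bacterial counterpart and a coding sequence of 321 bases, had 543, 670 and 715 normalized counts in overexpression libraries, against 356, 368 and 443 in controls. The means were 643 ± 89.7 in overexpression and 389 ± 47.1 in controls (SD, n = 3 each), a 1.65-fold difference with a log2 fold of 0.72 ± 0.16 (limma adjusted p = 0.0012), where 100% of 613 transcripts passed and 65.3% passed as higher. The groups did not overlap, but the fold was below the median of 1.31 over all transcripts tested. It was 0.65 with column totals (limma adjusted p = 0.0011), but turned to -0.50 (adjusted p = 0.011) with median-of-ratios scaling and to -0.03 (adjusted p = 0.83) with TMM. Median of ratios and TMM were computed from the listed transcripts alone, which were all selected as changed. The median over all transcripts tested moved with them, from 1.31 to 0.12 with median of ratios and 0.58 with TMM. In the knockdown table the same gene had 564, 578 and 892 in knockdown libraries, against 308, 296 and 255 in controls (1.21 ± 0.18, adjusted p = 2.4e-04). The 2 tables were scaled separately and have different controls, so the levels were not compared between them. The germ cell markers Tex101 and Mael summed to 249 to 349 in overexpression libraries and 55.4 to 73.1 in controls. The granulosa and theca marker Cyp17a1 was lower (-1.72 ± 0.33), with 109, 331 and 128 in overexpression libraries and 548, 543 and 561 in controls. The part of these markers' cells in the value of Mrpl33 was not tested. Of the related lists, the overexpression table held 1 import gene, Timm8b (1.22 ± 0.20), and 4 respiratory chain genes, all higher. The latter were Cox7b2 (3.54 ± 0.64), Cox8c (2.80 ± 0.46), Atp5l (0.79 ± 0.17) and Ndufb4 (0.63 ± 0.17). It also held 5 cytosolic ribosomal protein genes, 4 higher and 1 lower. Rpl39l (2.55 ± 0.34), Rpl10l (2.49 ± 0.35), Rps4l (1.35 ± 0.22) and Rps14 (0.62 ± 0.19) were higher, and Rpl21 (-1.84 ± 0.41) was lower.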

How the data were processed

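Per the labels' protocols, RNA was taken with Trizol into Illumina TruSeq RNA libraries. Bowtie 0.12.2 is named in the submitters' processing notes, with the builds mm10 and GRCm38, and neither the counting tool nor the test is given in the sources used here. For each of 12 libraries the authors deposited normalized counts, a signal that equals reads divided by 1 size factor per library. The log2 fold changes and their errors, the test score (fold over error) and the p-values, raw and adjusted, were computed by the authors and are used here only as an alternative. Only transcripts with at least a 1.50-fold change and an adjusted p of at most 0.0500 stand in the authors' deposited tables, so tests made here on the same libraries are not independent evidence. For the 3155 knockdown transcripts checked, Rn45s left out, 100% of values were within 0.01 of a whole multiple of a fixed step in each column, which gave size factors of 0.722 to 1.28. Listed normalized counts summed to 3.01e+06 to 5.52e+06 per library of that table, and total depth is unknown.

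Knockdown and overexpression were each fitted against their own control, without covariates, by limma 3.58.1 in R 4.3.3 on log2(normalized count + 1), with the variance allowed to follow the mean. The count test was replaced because the values were normalized. The filter asked for a normalized count of 10 or more in 3 libraries or more and a total of 15 or more, which all 30 genes passed. Calls used a Benjamini-Hochberg adjusted p under 0.05 over the whole table. Fold changes on this scale understate changes of low transcripts. The labels do not say that replicates were separate cultures, so p-values measure the spread between these libraries, which may be technical. The fit was tested on simulated data.

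The genes and lists were chosen with earlier results of these data known. Values of every library are given for the 6 highest and 6 lowest folds, the 3 highest counts of each subunit and the gene in both tables, and list members are named up to 6 per list by size of fold. The tRNA synthetase list is not reported here. Mrps18c, Mrpl15 and Mrpl43 were added after their values were seen. Gene positions and promoters come from RefSeq (GRCm38.p6), and coding lengths and exon overlaps from GENCODE M21. Alternatives were other scalings, pseudocounts and filters, no variance trend, a replicate block, each library left out, and edgeR 4.0.16 and DESeq2 1.42.0 on the recovered knockdown reads.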

Additional observations from a re-analysis of the deposited data

How the results depend on the processing

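In knockdown all 30 genes passed as higher with the authors' scaling, with median-of-ratios and TMM scaling, with pseudocounts of 0.5 and 5, with no filter or a mean of at least 100, with no variance trend, with the authors' deposited test, and with edgeR and DESeq2 on recovered reads. The authors' test had selected every listed transcript, so passing it was fixed in advance. With edgeR and with DESeq2 all 2902 transcripts tested passed in either direction. Of these, 1426 passed as higher, as many as with median-of-ratios and TMM scaling, so these counts bear on direction alone. The replicate numbers are shared by groups. Correlations of same-numbered deviations in knockdown were -0.07, -0.02 and -0.10, and those of unlike numbers ran from -0.02 to 0.10. These values cannot tell whether libraries were paired, and with the replicate block 30 of 30 genes passed. The count was 30 to 30 with any 1 library left out, and the medians then ran from 0.72 to 0.96 over all genes, 0.86 to 1.13 for the large and 0.58 to 0.71 for the small subunit, with a ratio of summed levels of 1.71 to 2.01 (1.88 with all). Scaling did change the results. With column totals 7 passed, the medians were 0.07 in all, 0.18 large and -0.16 small, the summed level was 1.07 times that of the controls, and 15 genes turned below 0: Mrps26 -0.23, Mrps9 and Mrps25 -0.21, Mrps15 and Mrpl28 -0.18, Mrps5 -0.15, Mrps7 -0.12, Mrps31 -0.11, Mrpl46 -0.10, Mrpl14 -0.06, Mrpl16 -0.04, Mrpl43 and Mrpl49 -0.03, Mrpl12 -0.01 and Mrpl44 -0.004. With totals that left out Rn45s 19 passed (medians 0.41, 0.53 and 0.18, summed level 1.35), with no scaling 15 passed, and with median of ratios the medians were 1.18, 1.30 and 0.95. In overexpression Mrpl33 turned to -0.50 with median of ratios and -0.03 with TMM, so 0 genes passed as higher by limma under either, at an adjusted or an unadjusted p. Both scalings were computed in each table from its listed transcripts alone, all selected as changed. Mrpl33 passed with each library left out (1 to 1). With no scaling Mrpl33 was at 0.75 (limma adjusted p = 0.044). Totals without Rn45s were not run for overexpression, since Rn45s was not analysed there. Among promoters, the shorter ETS core GGAAG was in 72.4% of windows (71.4% of all promoters), and in the nearest 100 bases CCAAT was in 24.1% (13.6%) and TATAAA in 0% of 29 (4.94%). The size of each change follows from the scaling factors alone; which scaling is right was not tested, and the small subunit's direction in particular rests on it.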
